A study of Mus musculus with 6 samples.

Results

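The 10 genes examined serve the absorption of dietary fat: Apoa1, Apoa4, Apob, Apoc3, Mttp, Dgat1, Fabp1, Fabp2, Cd36 and Npc1l1. They were chosen by name as enterocyte apolipoprotein and lipid handling genes, and their rows were found by Ensembl identifier among the 55414 genes of the count table. RNA had been sequenced from Paneth cells (PCs), crypt-base cells of the small intestine that secrete antimicrobial granules, which had been purified on a cell sorter 15 h after an injection. The control group was 3 C57BL/6J mice given phosphate-buffered saline (PBS), and the other group was 3 C57BL/6J mice given tumour necrosis factor (TNF), the inflammatory cytokine. Every mouse, controls included, was labelled IFNAR1 KO, the knockout of 1 chain of the receptor for type I interferons. No group with an intact receptor was analysed here, so the knockout itself was not checked, and the labels give no dose, age or sex. Each library came from a different mouse, so the p-values measure the spread between mice.

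Absorptive enterocytes take up fatty acids, monoglycerides and cholesterol from the gut lumen, rebuild triglycerides in the endoplasmic reticulum (ER), and load them onto apolipoprotein B to form chylomicrons that leave through the lymph. Fatty acid binding proteins carry the lipids through the cytosol, and the smaller apolipoproteins join the particle surface. These genes are classic enterocyte genes, and PCs are not known as fat-absorbing cells, so markers of enterocytes outside lipid handling were measured in the same libraries.

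Libraries held 12747484 to 17039511 counts. Expression is given as CPM, counts scaled to a common library size by TMM (trimmed mean of M-values). Where a gene had 0 counts, its level could still reach 0.146 to 0.254 CPM depending on the library (3 counts), a limit that covers counting error only. PC markers (10 genes, Lyz1, Mmp7 and alpha-defensins among them) summed to 406528 to 500512 CPM in PBS and 304019 to 671189 CPM in TNF. TNF replicate 1 stood apart from its group. Over the tested genes its log2 CPM correlated at 0.937 to 0.945 with the PBS libraries but at 0.884 and 0.883 with TNF replicates 2 and 3, which correlated at 0.954 with each other. It was kept in the TNF group as labelled, and values are given with and without it.

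Of the 10 genes, 7 had enough counts to be tested over the 6 libraries, and Apoa4, Apoc3 and Cd36 did not. The test was edgeR's quasi-likelihood test over all tested genes, and a Benjamini-Hochberg adjusted p under 0.05 is termed passing 5%. None of the 7 passed 5%, nor did any of the 13026 genes tested (0%). Limma-voom also passed none of them, and DESeq2 passed Apoa1 and Apob, both lower in TNF. It called 0.307% lower of the 11741 genes to which it gave an adjusted p. Fabp2 was not among these, as DESeq2 gave it no p-value. At an unadjusted edgeR p under 0.05 there were 2 of the 7 (Apoa1 and Apob, both lower in TNF), against 12.3% of all genes in either direction (521 lower and 1075 higher). For the same 2 genes every TNF library lay below every PBS library, which was so for 7.82% of all tested genes. The median log2 fold change of the 7 genes was -0.66, and that of all genes was 0.00 to 2 decimals. Without TNF replicate 1, 3 of the same 7 genes (Apoa1, Apob and Fabp2) passed 5% lower in TNF, against 5.40% of all genes lower and 9.10% higher, and the median log2 fold change of the 7 was -0.44. Apoa4 also entered that fit and passed 5%, but only its PBS counts took it through the filter, so its direction was fixed and it is not counted with the 3. Apoa1 (5, 9 and 0 counts in TNF) likewise entered both fits through its PBS counts alone. Its direction was thus fixed in each count above, which does not hold for Apob or Fabp2.

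**Figure D1:**
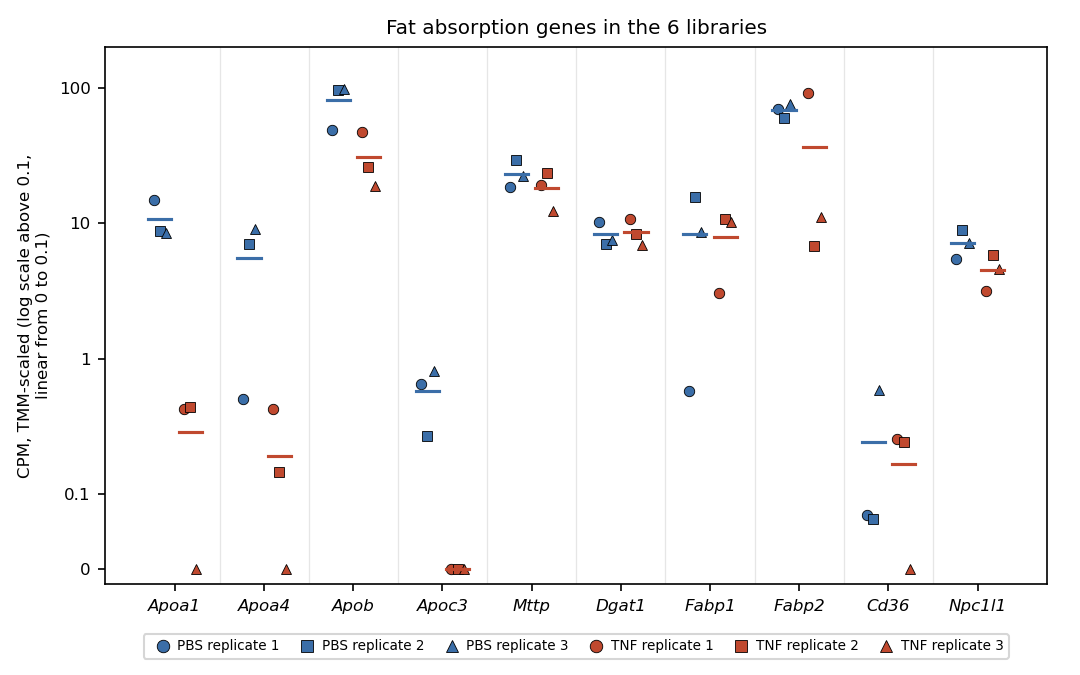
CPM (TMM-scaled, log axis above 0.1 and linear from 0 to 0.1) of the 10 fat absorption genes, with 1 point per library and a bar at the mean of the 3 PBS (blue) or 3 TNF (red) libraries. Apoa1, Apoa4, Apob and Apoc3 had every TNF point under every PBS point, as had 7.82% of all tested genes. Of these, Apoa4 and Apoc3 were too low to be tested, and Apob was split by 49.0 against 47.5 CPM. TNF replicate 1 (red circle) lay at 91.3 CPM for Fabp2, above the PBS libraries.

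The upstream sequences of the 4 genes that passed 5% without TNF replicate 1 are shown, with that of Fabp1, the cytosolic binding protein gene whose groups overlapped, for contrast. Each is the 250 bases before the annotated start, from the RefSeq promoter table on GRCm38.p6, which held an entry for 8 of the 10 genes (Apoc3 and Dgat1 had none). The positions are chr9:46228380-46228629 (Apoa1), chr9:46240594-46240843 (Apoa4), chr12:7977427-7977676 (Apob), chr3:122894822-122895071 (Fabp2) and chr6:71199629-71199878 (Fabp1), all on the plus strand. Capitals mark TATAAA, the TATA box letters.
Apoa1: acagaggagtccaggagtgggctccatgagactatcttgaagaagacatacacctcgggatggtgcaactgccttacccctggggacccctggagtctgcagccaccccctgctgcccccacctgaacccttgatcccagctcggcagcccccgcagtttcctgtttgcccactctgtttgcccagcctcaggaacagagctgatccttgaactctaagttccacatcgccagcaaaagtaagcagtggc
Apoa4: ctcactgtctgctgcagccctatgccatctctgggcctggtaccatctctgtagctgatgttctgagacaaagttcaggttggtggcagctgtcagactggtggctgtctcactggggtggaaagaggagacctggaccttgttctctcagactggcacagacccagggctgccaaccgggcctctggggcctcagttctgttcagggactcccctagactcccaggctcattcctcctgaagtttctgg
Apob: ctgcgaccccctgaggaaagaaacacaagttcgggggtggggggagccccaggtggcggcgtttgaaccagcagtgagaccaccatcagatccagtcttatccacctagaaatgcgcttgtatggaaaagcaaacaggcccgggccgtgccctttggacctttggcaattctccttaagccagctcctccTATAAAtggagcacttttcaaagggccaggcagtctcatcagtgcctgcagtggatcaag
Fabp2: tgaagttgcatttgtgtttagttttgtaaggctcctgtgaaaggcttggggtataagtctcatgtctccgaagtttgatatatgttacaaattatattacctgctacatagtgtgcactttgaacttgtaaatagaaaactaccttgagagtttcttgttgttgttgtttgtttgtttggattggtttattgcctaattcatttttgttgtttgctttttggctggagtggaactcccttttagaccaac
Fabp1: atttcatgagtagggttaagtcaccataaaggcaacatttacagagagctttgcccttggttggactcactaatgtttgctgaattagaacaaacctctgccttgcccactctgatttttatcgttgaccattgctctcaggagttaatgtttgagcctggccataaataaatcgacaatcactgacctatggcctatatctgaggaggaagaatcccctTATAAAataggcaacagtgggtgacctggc

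TATAAA was found on the gene's own strand 60 bases before the start of Apob and 30 bases before that of Fabp1. It was in none of the other 6 promoters, and 12.4% of all 32851 promoters of this length held it on either strand. The letters CAAAGTCCA and CAAAGGTCA, sites of the type bound by HNF4 factors, were in none of the 8 promoters (0.384% and 0.426% of all promoters). A site for zinc-finger factors such as Gata4 (AGATAA) was likewise in none of the 8, against 9.99% of all promoters. Matches were exact and both strands were searched. Other spellings that the same factors bind were not searched, so nothing follows about binding.

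Apoa1, Apoc3 and Apoa4 are neighbours on chromosome 9 within 14880 bases of GRCm39. Apoa1 (ENSMUSG00000032083, chr9:46139878-46142212, plus strand) and Apoc3 (ENSMUSG00000032081, chr9:46142527-46146934, minus strand) end 314 bases apart, and the start of Apoa4 (ENSMUSG00000032080, chr9:46151994-46154757, plus strand) lies 5059 bases beyond that of Apoc3. All 3 were lower in every TNF library than in any PBS library, TNF replicate 1 included, as were 7.82% of all tested genes. Apoa4 and Apoc3 had too few counts to be tested over the 6 libraries, and their groups were barely apart. The closest values were 0.504 against 0.424 CPM for Apoa4. For Apoc3 they were 0.266 CPM against 0 counts, a 0 that could reach 0.254 CPM.

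Apoa1 encodes the main protein of high-density lipoprotein, also carried on chylomicrons made by the gut. Its values were 14.8, 8.73 and 8.51 CPM in PBS (replicates 1 to 3, as throughout) against 0.424, 0.439 and 0 CPM in TNF. The groups lay far apart, and the TNF libraries held 3.97%, 4.11% and 0% of the PBS mean. In raw counts this was 453 in PBS and 14 in TNF. In edgeR the log2 fold change was -5.11 (SE 0.69, unadjusted p 3.37e-05, adjusted p 0.270). Left without TNF replicate 1, Apoa1 passed 5% at -5.31 (adjusted p 6.31e-04), so that library set the call but not the size. In both fits only its PBS counts took it through the filter, so its direction was fixed. Over 15 alternatives the log2 fold change ran from -5.65 to -4.59 and the adjusted p from 2.43e-15 to 0.677. An exact permutation test on the 6 CPM values gave p = 0.1, the smallest that 3 against 3 libraries allow.

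Apoa4 encodes a chylomicron apolipoprotein that is also a gut satiety factor. It had 0.504, 7.06 and 9.09 CPM in the PBS libraries and 0.424, 0.146 and 0 CPM in the TNF libraries. PBS replicate 1 lay close to TNF replicate 1, with 7 and 5 counts, so the groups were separated only by a margin within counting error, whereas PBS replicates 2 and 3 held 106 and 124 counts. The gene had enough counts in only these PBS libraries and was not tested over all 6 (exact permutation p = 0.1, again the smallest possible). Without TNF replicate 1 the filter kept it through PBS replicates 2 and 3 alone, which fixed its direction, and the edgeR log2 fold change was -5.84 (SE 1.30, with an adjusted p of 0.0122). Fits that kept it over the other subsets of 5 libraries gave adjusted p-values of 0.476 to 0.897. A pair of annotated genes on the opposite strand, Gm47528 and Gm10680, share 634 and 632 exonic bases with Apoa4. They had 0 to 0.147 CPM in any library.

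Apoc3 encodes an inhibitor of lipoprotein lipase and of remnant uptake. It had 0.648, 0.266 and 0.807 CPM in PBS (9, 4 and 11 counts), and 0 counts in each of the 3 TNF libraries. Set against 3 counts over the whole TNF group (0.0671 CPM), the pooled PBS level was 8.41-fold higher. That figure allows for counting error in TNF only, not for error in the PBS counts or spread between mice. The counts were too few for the edgeR test, and with no low-count filter the adjusted p was 0.139. The exact permutation p was 0.1.

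Apob and Mttp build the particle. Apob (ENSMUSG00000020609, chr12:8027648-8066835, plus strand) encodes the scaffold protein of chylomicrons and had 49.0, 97.1 and 98.0 CPM in PBS against 47.5, 26.0 and 18.7 CPM in TNF. The groups did not overlap, but PBS replicate 1 and TNF replicate 1 lay within 2 CPM of each other. The TNF libraries held 58.4%, 32.0% and 23.0% of the PBS mean. In edgeR the log2 fold change was -1.41 (SE 0.38, unadjusted p 0.00475, adjusted p 0.278), and DESeq2 called it lower (-1.42, adjusted p 0.0223). When TNF replicate 1 was left out it passed 5% in edgeR at -1.84 (adjusted p 0.00298), within a range of 1.75e-05 to 0.897 over 15 alternatives.

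Mttp (ENSMUSG00000028158, chr3:137795612-137850729, minus strand) encodes the microsomal transfer protein that loads lipid onto apolipoprotein B. Its levels were 18.4, 29.0 and 22.3 CPM in PBS against 19.3, 23.3 and 12.2 CPM in TNF. The groups overlapped, with only TNF replicate 3 under the PBS range. The edgeR log2 fold change of -0.35 (SE 0.29, adjusted p 0.656) was close to its error, and it was -0.36 without TNF replicate 1 (adjusted p 0.474). Trmt10a on the opposite strand shares 768 exonic bases with Mttp and had 4.40 to 5.13 CPM in PBS and 5.43 to 10.1 CPM in TNF. The use of strand in counting is not given in the sources used here, so reads of the pair cannot be told apart.

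Dgat1 (ENSMUSG00000022555, chr15:76385083-76396476, minus strand) encodes an enzyme of the last step of triglyceride synthesis. It had 10.2, 7.06 and 7.55 CPM in PBS against 10.7, 8.30 and 6.91 CPM in TNF. Both groups covered nearly the same range. The edgeR log2 fold change was 0.06 (SE 0.30, adjusted p 0.945), and its sign turned in 4 of 15 alternatives, among them library size alone (-0.045) and without TNF replicate 1 (-0.095). Hsf1, a heat-shock factor gene on the opposite strand, shares 2486 exonic bases with Dgat1 and had 13.1 to 14.5 CPM in PBS and 8.01 to 8.82 CPM in TNF. With the use of strand not given, reads of this pair cannot be told apart either, in any Dgat1 value given here.

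The genes of the cytosolic fatty acid binding proteins gave unlike values. Fabp2 (ENSMUSG00000023057, chr3:122688721-122693155, plus strand), the intestinal form, had 69.7, 60.2 and 75.6 CPM in PBS against 91.3, 6.84 and 11.1 CPM in TNF. TNF replicate 1 was the highest library of the 6 and the other TNF libraries were the lowest, at 9.98% and 16.2% of the PBS mean. With all libraries edgeR gave a log2 fold change of -0.92 (SE 0.78, adjusted p 0.665). Leaving out TNF replicate 1 gave -2.93 (SE 0.26, adjusted p 6.31e-05), so that library decided the value. The exact permutation p over the 6 libraries was 0.4.

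Fabp1 (ENSMUSG00000054422, chr6:71176809-71182016, plus strand), the liver form, which the gut also makes, had 0.576, 15.5 and 8.65 CPM in PBS against 3.05, 10.7 and 10.1 CPM in TNF. Replicate 1 was the lowest in both groups, and the groups overlapped. The edgeR log2 fold change was -0.05 (SE 0.84, adjusted p 0.986). It was 0.35 without TNF replicate 1 (adjusted p 0.807) and 0.79 without PBS replicate 2. In TNF replicates 2 and 3 Fabp1 stood at 130% and 123% of its PBS mean, where Fabp2 had 9.98% and 16.2%. The difference between the fold changes of these genes was not tested.

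Cd36 and Npc1l1 act at the cell surface in lipid uptake. Cd36 (ENSMUSG00000002944, chr5:17986432-18094067, minus strand), a long-chain fatty acid receptor, had 1, 1 and 8 counts in PBS and 3, 5 and 0 counts in TNF. That is 0.0666 to 0.587 CPM in PBS and 0 to 0.254 CPM in TNF, at or near the limit of detection, and no difference was detectable at this depth (exact permutation p = 0.8). Npc1l1 (ENSMUSG00000020447, chr11:6161013-6180242, minus strand), the sterol transporter that ezetimibe blocks, had 5.40, 8.86 and 7.19 CPM in PBS against 3.14, 5.81 and 4.58 CPM in TNF. TNF replicate 2 lay within the PBS range and the other TNF libraries under it. The edgeR log2 fold change was -0.66 (SE 0.36, adjusted p 0.490), and -0.44 without TNF replicate 1 (adjusted p 0.460).

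**Figure D2:**
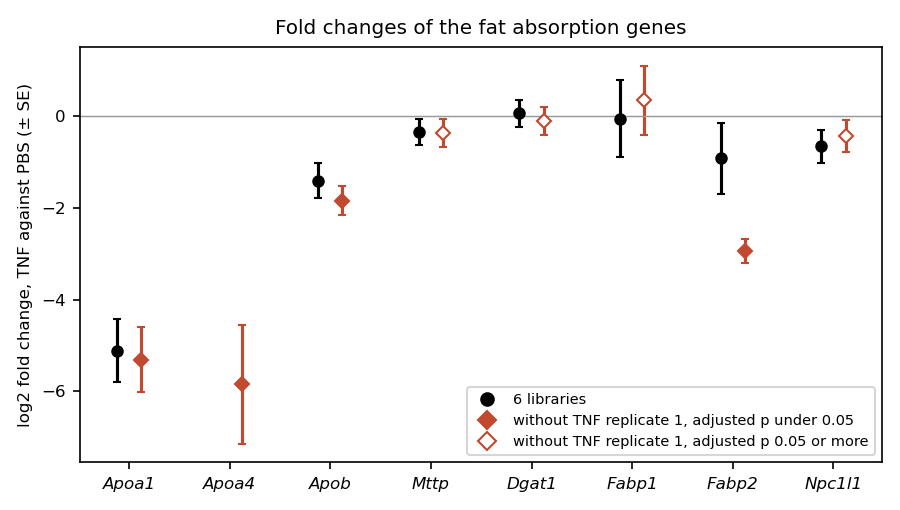
Log2 fold change (TNF against PBS, ± SE) from edgeR for the 8 fat absorption genes that could be fitted, with all 6 libraries (black) and without TNF replicate 1 (red, filled where the adjusted p was under 0.05). Apoa1 stood near -5 in both fits, Fabp2 moved from -0.92 to -2.93, and Mttp, Dgat1, Fabp1 and Npc1l1 stayed within 1 log2 unit of 0.

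Levels were also compared between genes in CPM per kb of the canonical transcript. In PBS the order of the mean levels was Fabp2 (71.0 ± 8.04, SD, n = 3), Fabp1 (14.6 ± 13.3), Apoa1 (7.21 ± 2.42), Mttp (5.86 ± 1.35), Apob (5.84 ± 2.01), Dgat1 (4.37 ± 0.880), Apoa4 (3.06 ± 2.47), Npc1l1 (1.57 ± 0.379), Apoc3 (0.236 ± 0.114) and Cd36 (0.0690 ± 0.0852). Only Fabp2 and Fabp1, and Npc1l1 and Apoc3, had PBS ranges that lay apart among neighbours in this order. The other neighbours overlapped. Apob, with the longest transcript (13934 bases), had the highest CPM in PBS but rank 5 per kb. In TNF, Apoa1 had 0.194 ± 0.168 CPM per kb, Fabp2 37.7 ± 49.3 and Apob 2.21 ± 1.07.

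**Figure D3:**
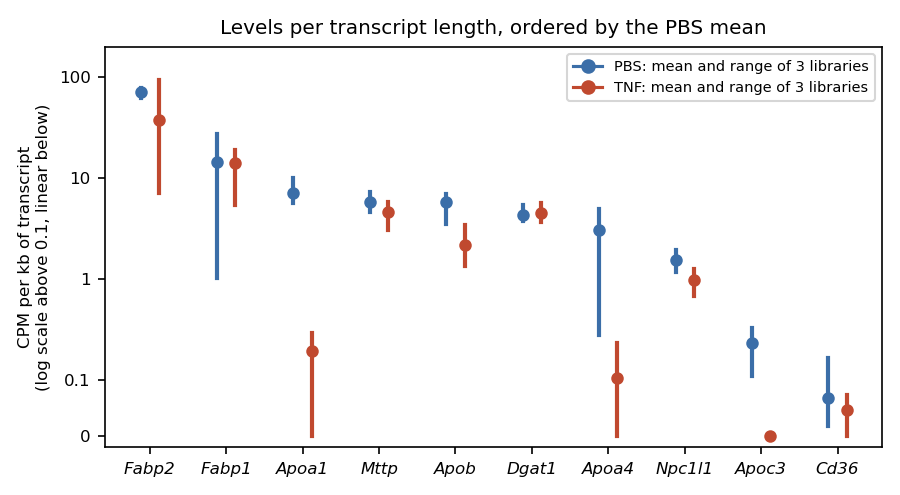
Mean (point) and range (line) of CPM per kb of transcript over the 3 PBS (blue) and 3 TNF (red) libraries, ordered by the PBS mean, on a log axis above 0.1 and a linear one under it. The PBS means ran from 71.0 (Fabp2) to 0.0690 (Cd36), and the TNF range of Fabp2 spanned 7.08 to 94.6.

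Summed over the 10 genes, the level was 169, 234 and 238 CPM in PBS against 176, 81.8 and 63.7 CPM in TNF. TNF replicate 1 lay within the PBS range and the other TNF libraries under it. In the mean log2 CPM of the 7 tested genes, the PBS libraries had 3.60, 4.36 and 4.20 and the TNF libraries 3.19, 2.91 and 2.42, with all TNF libraries under all PBS libraries. That separation rested on Apoa1, whose direction was fixed by the filter, at -4.22, -4.18 and -6.25 log2 units from its PBS mean in TNF. Without Apoa1 the groups would overlap in this mean, with TNF replicate 1 inside the PBS range. In TNF replicate 1 the other tested genes ran from -1.13 (Npc1l1) to 0.42 (Fabp2). The median of the 7 genes overlapped between groups, at -0.31 in PBS replicate 1 and -0.26 in TNF replicate 2. The 10 genes outside the group whose log2 CPM followed the mean of the 7 most closely over the 6 libraries were Atp7a, Rev3l, Sorl1, Cabin1, Zcchc7, D630030B08Rik, C2cd3, Golga5, Arhgef38 and Nipbl, with Pearson r of 0.981 (Nipbl) to 0.994 (Atp7a). The copper exporter gene Atp7a had 12.9, 16.2 and 15.0 CPM in PBS against 12.1, 11.2 and 9.56 CPM in TNF. These genes were picked for their r among all tested genes over 6 points, so r is a description only.

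Enterocyte markers outside lipid handling (27 genes) had mostly lower values in TNF as well. Of the 20 tested, 18 had a negative and 2 a positive log2 fold change, 0 passed 5% in edgeR, and 9 were lower at an unadjusted p under 0.05, as were 521 of all 13026 genes. In 7 of the 20 every TNF library lay below every PBS library, against 7.82% of all tested genes. DESeq2 passed 2 of them, Enpep among these. Their median log2 fold change was -0.87, beside -0.66 for the fat absorption genes. The markers summed to 792, 583 and 567 CPM in PBS against 557, 464 and 328 CPM in TNF, and none was at 0 in all libraries. Vil1 was the largest part of each sum, at 324, 249 and 291 CPM in PBS against 185, 321 and 218 CPM in TNF. Without Vil1, TNF replicate 1 would lie within the PBS range of the sum and the other TNF libraries under it. Alpi, the intestinal alkaline phosphatase gene that defines mature enterocytes, had 0.576 to 1.73 CPM in PBS and 0 to 0.0848 CPM in TNF, too low to be tested. Leaving out TNF replicate 1, 8 of the same 20 passed 5%, all lower in TNF (Anpep, Dpp4, Enpep, Khk, Mep1b and Sis among them), against 5.40% of all genes lower, and the median of the 20 was -1.34. Lct also passed in that fit, where only its PBS counts took it through the filter. Enpep, counted above, entered both fits in that way too, so its direction was fixed.

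Among the smallest p-values, the brush border peptidase gene Enpep had 3.53, 4.20 and 2.20 CPM in PBS against 0.594, 0.488 and 0 CPM in TNF (log2 fold change -3.15, edgeR adjusted p 0.278). Sis, which encodes sucrase-isomaltase, had 8.21, 9.53 and 12.7 CPM in PBS against 5.68, 1.51 and 2.89 CPM in TNF (-1.61, adjusted p 0.282). Mep1b (-0.84) and Krt20 (-0.90) likewise had every TNF library under every PBS library, as for Apoa1 and Apob. Of the abundant markers, Vil1, an actin bundler of microvilli, had 185 to 321 CPM in TNF against 249 to 324 CPM in PBS (-0.25, adjusted p 0.744), Anpep had -1.05, Slc5a1 -0.45 and Dpp4 -0.47.

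In bulk RNA of sorted cells, fewer enterocytes and less RNA per cell cannot be told apart, and the part of enterocyte carry-over in the values of Apoa1, Apob or Fabp2 was not tested. Relative to the PBS mean, the median of the tested fat absorption genes was -0.53, -0.26 and -0.90 on the log2 scale in TNF replicates 1 to 3, and that of the enterocyte markers was -0.49, -1.21 and -1.42.

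**Figure D4:**
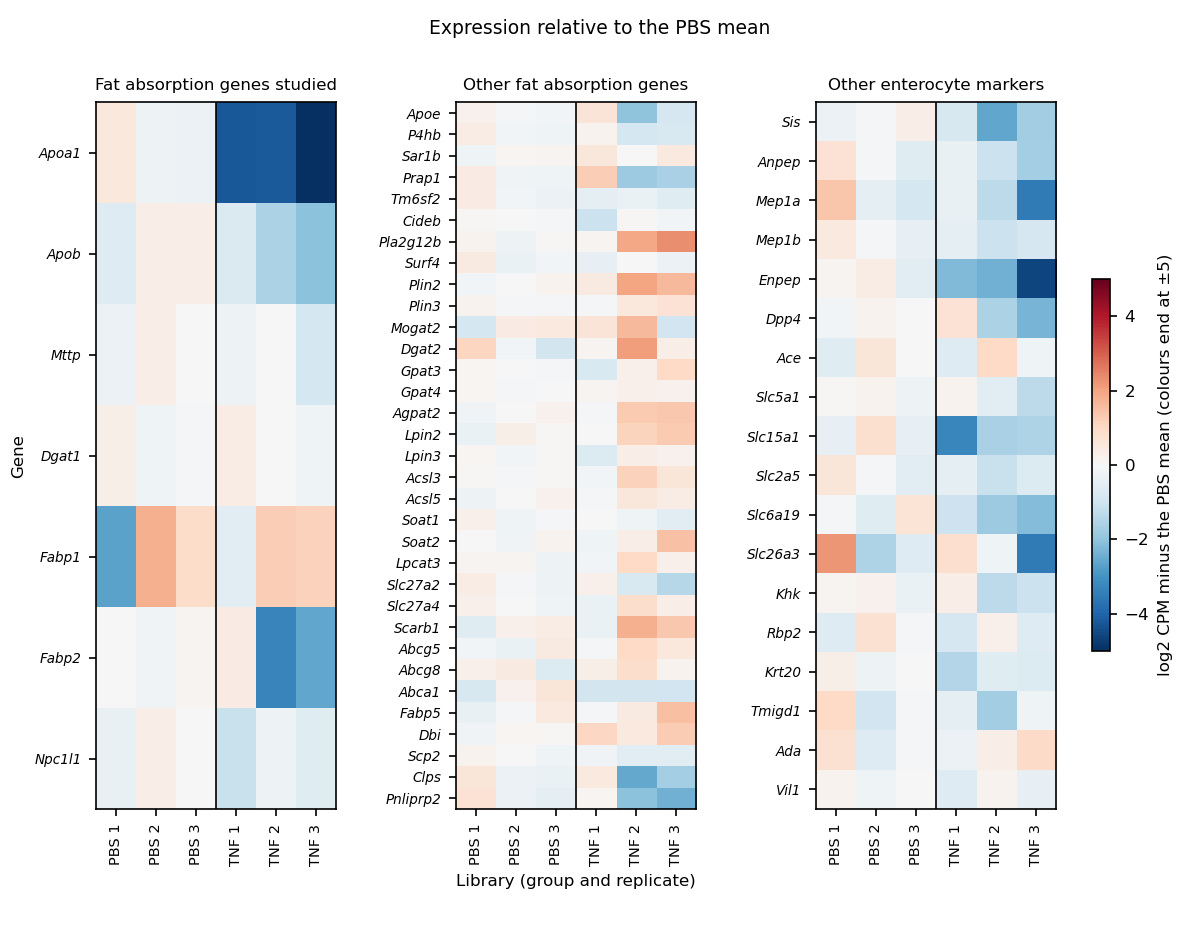
Log2 CPM minus the PBS mean (red higher, blue lower, colours ending at ±5) for tested genes of 3 lists (a few are not shown), with 1 column per library. In TNF replicates 1 to 3 the medians of the whole lists were -0.53, -0.26 and -0.90 for the fat absorption genes, -0.06, 0.38 and 0.29 for other fat absorption genes, and -0.49, -1.21 and -1.42 for enterocyte markers.

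Markers of other cells were measured for the same reason. Goblet cell markers (8 genes) summed to 12337 to 13567 CPM in PBS and 7922 to 15797 CPM in TNF, most of it Spink4, and to 4820 to 5115 and 3995 to 4896 CPM without Spink4. Their median log2 fold change was -0.15, and without TNF replicate 1 it was -0.82. In that fit 4 of the 8 (Tff3, Fcgbp, Zg16 and Clca1) passed 5% lower in TNF, against 5.40% of all genes. Stem cell markers (6 genes) summed to 2207 to 2704 CPM in PBS and 424 to 4207 CPM in TNF, most of it Olfm4, and to 286 to 334 and 166 to 327 CPM without Olfm4. Their median was -0.47, and without TNF replicate 1 it was -0.95. In that fit 3 of the 6 (Ascl2, Smoc2 and Olfm4) passed 5% lower, against the same 5.40% of all genes, whereas Lgr5 had -0.25. The part of goblet or stem cells in the values of the fat absorption genes was not tested either. Tuft cell markers had 424 to 1470 CPM in PBS and 528 to 991 CPM in TNF, and enteroendocrine markers 55.4 to 188 and 41.7 to 125 CPM, with Nts at 0 in all libraries. Immune cell markers had 22.5 to 55.1 CPM in PBS and 35.7 to 45.4 CPM in TNF. Endothelial markers, relevant to Cd36, which capillaries express, had 0.848 to 4.05 CPM in any library, and Cdh5, Kdr and Emcn were at 0 in all 6. Hepatocyte markers, relevant to the apolipoproteins that the liver secretes, had 6.33 to 7.99 CPM in PBS and 2.98 to 13.6 CPM in TNF.

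Other genes of fat digestion, lipid resynthesis and export (41 genes) had a median log2 fold change of 0.36, with 22 of the 34 tested higher and 12 lower in TNF. In edgeR 0 passed 5%. At an unadjusted p under 0.05, 5 were higher and 1 lower, against 1075 higher and 521 lower of all 13026 genes, and DESeq2 passed 3 (Dbi, Pla2g12b and Plin2, all higher, as were 206 of all genes). Without TNF replicate 1, 9 of 35 passed 5% higher (Acsl3, Agpat2, Dbi, Lpin2, Pla2g12b, Plin2, Plin3 and Scarb1 among them) and 4 lower (Clps, Pnliprp2, Prap1 and Slc27a2), against 9.10% of all genes higher and 5.40% lower. Apoa5 was at 0 in all libraries.

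Plin2, which encodes a lipid droplet coat protein, had 11.7, 12.8 and 14.5 CPM in PBS against 17.8, 50.6 and 40.6 CPM in TNF. Every TNF library was above every PBS library, with TNF replicate 1 the closest (edgeR log2 fold change 1.49, SE 0.35, adjusted p 0.270, and 1.83 with 2.60e-04 without it). Dbi, the acyl-CoA binding protein gene, was also higher in every TNF library, at 139, 95.3 and 163 CPM against 59.6 to 73.3 CPM in PBS (0.96, adjusted p 0.270). Pla2g12b, which takes part in lipoprotein lipidation, had 2.93 to 4.03 CPM in PBS against 3.90, 13.7 and 18.1 CPM in TNF, with TNF replicate 1 inside the PBS range (1.75, adjusted p 0.278). Agpat2, an enzyme of phosphatidic acid synthesis, had the same order, at 11.0 to 14.3 CPM in PBS against 12.0, 31.2 and 31.6 CPM in TNF (0.99, adjusted p 0.330). Abca1, the cholesterol exporter gene, was lower in every TNF library, at 4.10 to 4.16 CPM against 4.54, 9.33 and 12.3 CPM in PBS (-1.08, adjusted p 0.334).

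The most abundant genes of that list were P4hb, the ER disulfide isomerase that is also a subunit of the microsomal transfer complex, the lumenal lipolysis genes Clps and Pnliprp2, the ER cargo receptor gene Surf4 and Soat1, which encodes an enzyme of cholesterol esterification. P4hb had 2683 to 4104 CPM in PBS against 3580, 1731 and 1852 CPM in TNF (log2 fold change -0.43, edgeR adjusted p 0.699). Clps, the cofactor of pancreatic lipase, had 2337, 1248 and 1229 CPM in PBS against 2168, 259 and 466 CPM in TNF (-0.73, adjusted p 0.704). Pnliprp2, a related lipase, had 2196, 1074 and 974 CPM in PBS against 1410, 318 and 249 CPM in TNF (-1.10, adjusted p 0.513). In both, TNF replicate 1 lay within the PBS range and the other TNF libraries under it, and without TNF replicate 1 both passed 5% (-2.13 with 0.00434 and -2.30 with 0.00279). Surf4 had -0.26 and Soat1 -0.24, both with overlapping groups.

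Regulators of lipid genes (15 factors, all tested) had a median log2 fold change of 0.14, with 8 higher and 7 lower in TNF, 0 past 5% in edgeR or DESeq2, and 1 at an unadjusted p under 0.05 in each tool. In edgeR that gene was Creb3l3, an ER-bound factor that drives apolipoprotein genes, Apoa4 among them. It had 0.288, 0.600 and 1.03 CPM in PBS against 1.78, 4.44 and 2.49 CPM in TNF, higher in every TNF library (2.18, SE 0.68, edgeR adjusted p 0.297), and it passed 5% without TNF replicate 1 (2.45, adjusted p 0.0384). Its PBS counts (4, 9 and 14) would not alone have taken it through the filter, so its entry rested on the TNF group, where it was high. Apoa1 and Apoa4 were lower in the TNF libraries. Hnf4a, the nuclear receptor that maintains enterocyte genes, had 241, 177 and 200 CPM in PBS against 181, 168 and 134 CPM in TNF, with overlapping groups (-0.35, adjusted p 0.568). Gata4, a factor of the proximal small intestine, had 27.9, 20.9 and 21.8 CPM in PBS against 25.5, 6.98 and 5.87 CPM in TNF (-0.89, adjusted p 0.501), and without TNF replicate 1 it passed 5% lower (-1.85, adjusted p 7.61e-04).

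Of the other regulators named by the rule, Nr1h4, the bile acid receptor gene, was higher in every TNF library, at 11.2 to 13.3 CPM against 8.07 to 10.2 CPM in PBS (0.46, edgeR adjusted p 0.473), and Maf was lower in each, at 0.848 to 1.05 CPM against 1.39 to 2.66 CPM (-0.998, adjusted p 0.517). Srebf2 (0.16), Cdx2 (-0.02), Klf4 (-0.48) and Srebf1 (0.14) had overlapping groups.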

How the data were processed

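The authors deposited raw counts by Ensembl gene and library in 1 table. Per the submitters' processing notes they used FastQC, Trimmomatic 0.39, STAR 2.7.10a and DESeq2 with build mm39. Not given in the sources used here are the counting tool, the annotation, the strand setting and the treatment of multi-mapping reads. Of 55414 identifiers, 54749 matched GENCODE vM39 (GRCm39), which gave symbols, positions and canonical transcript lengths.

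The analysis used R 4.3.3, edgeR 4.0.16 (filterByExpr with a minimum count of 10 and total of 15, TMM factors, quasi-likelihood test, two-sided, group as the only term, prior count 0.125), limma 3.58.1 and DESeq2 1.42.0. The edgeR step was checked on simulated data. Each SE is the absolute log2 fold change over the square root of its F statistic. Exact permutation tests on CPM were two-sided. Likeness was Pearson's r of log2 CPM (prior count 2) with the mean of the 7 tested genes, and medians per library use the same log2 CPM. In the other lists, genes with the 5 highest mean CPM and the 5 smallest unadjusted p were named, and other names given with counts of calls were chosen after their values were seen. A few list genes are counted but not reported here by name. The 10 genes and the lists were chosen with earlier results of these data known. Alternatives were RLE factors, library size alone, a mean CPM of 5 or more, no low-count filter, TMM without the genes holding over 1% of counts, omission of each library in turn, a replicate block, DESeq2, limma-voom and, for single genes, a prior count of 2.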

Additional observations from a re-analysis of the deposited data

How the results depend on the processing

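TNF replicate 1 decided most calls, and the cause was not tested. Genes past 5% with edgeR, 0 in each count over 6 libraries, ranged over leaving out 1 library from 0 to 1980 for all genes, 0 to 4 for the fat absorption genes, 0 to 13 for the other fat absorption genes, 0 to 2 for regulators and 0 to 9 for enterocyte markers, the highest each time without TNF replicate 1 and 0 without any other library. With no low-count filter the counts were 690 for all genes (491 higher, 199 lower), 4 for the fat absorption genes (Apoa1, Apoa4, Apob and Fabp2), 5 for other fat absorption genes and 6 for enterocyte markers. With DESeq2 they were 242 (206 higher, 36 lower), 2, 3 and 2 in the same order. The other scalings, a mean CPM of at least 5 and limma-voom gave 0 in each count. Genes at an unadjusted p under 0.05 numbered 1596 in edgeR over 6 libraries, 1670 with limma-voom and 1685 with DESeq2. A replicate block gave 0 past 5% in each count and 1395 at an unadjusted p under 0.05. The labels do not say that replicate numbers pair mice, and deviations of same-numbered libraries correlated at -0.07 to 0.03. Signs turned for 2 genes with fold changes near 0. Dgat1 had -0.045 with library size alone, and leaving out 1 library gave -0.095 to 0.24. Fabp1 had 0.47 with the replicate block and 0.74 with limma-voom, and leaving out 1 library gave -0.59 to 0.79. Library size alone moved the median of all genes to -0.11. The depth leaves Cd36 and Apoc3 at a few counts per library, so a moderate change in either could not be seen.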

Other observations

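PBS replicate 1 differed from the other PBS libraries in several genes of these lists, chosen after their values were seen. It had 0.504 CPM of Apoa4, 0.576 CPM of Fabp1 and 0.432 CPM of Lct, the lactase gene, where PBS replicates 2 and 3 had 7.06 and 9.09, 15.5 and 8.65, and 3.26 and 4.33 CPM. Genes of bile acid uptake and efflux were higher in it. Fabp6, the ileal bile acid binding protein gene, had 6.12 CPM against 0.400 and 0.513 CPM, Slc10a2, the ileal bile acid transporter gene, had 2.88 CPM against 0 and 0.367 CPM, and Slc51a had 1.44 CPM against 0.333 and 0 CPM. The carboxyl ester lipase gene Cel had 11.6 CPM in PBS replicate 1 and 0 counts in the other 5 libraries. Each of these contrasts is 1 library against the others and has no replicate check.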
